A study of Mus musculus with 9 samples.

Results

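The enzymes of cholesterol synthesis Hmgcs1, Idi1, Fdps, Fdft1, Sqle, Lss and Dhcr7 were followed in polyadenylated RNA of the mouse medial prefrontal cortex, a frontal area involved in the control of mood and stress responses. The members were taken by gene symbol from the deposited table, and all 7 of 7 were found among its 65389 rows and among the 14013 genes kept after a filter on low values. Each of these 7 codes for a synthetic enzyme, and genes of sterol uptake were read from a separate list. The study had 3 groups of 3 libraries each: mice of the running model, listed as exercise, mice of the chronic unpredictable stress (CUS) model, listed as stress, and control mice, listed as no stress. Per the title and design text, the running mice had undergone the stress as well, so the running and CUS groups differ in the exercise and both differ from the controls in the stress. The labels give the same terms "4week" and "week8" for all 9 libraries without saying what each counts, and the strain, sex, age, kind of running and number of animals per library were stated in none of the sources used. Nothing says that the libraries came from separate animals, so each p-value reflects library-to-library spread alone, and that spread may be technical.

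Cholesterol hardly passes from the blood into the brain, so neurons and glia depend on sterol made in place from acetyl-CoA. The pathway builds the isoprenoid farnesyl diphosphate through mevalonate, commits it to squalene, closes the sterol rings and then trims them to cholesterol. When membrane sterol falls, the transcription factor SREBP-2 is released and raises most genes of the pathway together. Oligodendrocytes, which need cholesterol for myelin, and astrocytes, which export it to neurons on apolipoprotein E, are major sites of this synthesis.

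Values are fragments per kilobase of transcript and library size (FPKM) as deposited by the authors, which allows levels of different genes to be compared per length. Library sums ran between 370441 and 423257 FPKM. They were 378824, 370441 and 371109 in running libraries, all below the 393663, 386366 and 423257 of CUS libraries, so sum and group are tied in this comparison. The control sums, 380395, 377545 and 390537, overlapped with those of both other groups. The highest sum belonged to CUS replicate 3. Its log2 values had a mean Pearson r of 0.987 with those of the other libraries, where the other 8 libraries had between 0.990 and 0.993. Read depth is unknown. The labelled tissue was checked with 5 markers of cortical excitatory neurons, and each was present in every library, with Tbr1 at 38.0 FPKM or more. In bulk tissue, fewer cells of a type and less RNA per cell cannot be told apart.

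The promoters are shown because the 7 genes tend to vary together between libraries of a group, as described below, and because this family is the textbook target of SREBP-2. Any part of the promoters or of SREBP-2 in that joint variation was not tested. The RefSeq promoter table (build GRCm38.p6) held windows for 4 of the 7 members, Hmgcs1, Idi1, Lss and Dhcr7. The 250 bases upstream of the start that the table uses are printed 5′ to 3′, with capitals for matches on either strand to TCACNCCAC, the core of a sterol regulatory element, to CCAAT, and to GGGCGG, the GC box. For Dhcr7, which has 3 annotated starts, the window with the most matches is printed; of its others, 1 held a GC box alone and 1 held no match. The table's start is not always the first base of the annotated gene: the last 40 bases of the Lss window and all 250 of the printed Dhcr7 window lie within the gene.
Hmgcs1, chr13:119690101-119690350, plus strand: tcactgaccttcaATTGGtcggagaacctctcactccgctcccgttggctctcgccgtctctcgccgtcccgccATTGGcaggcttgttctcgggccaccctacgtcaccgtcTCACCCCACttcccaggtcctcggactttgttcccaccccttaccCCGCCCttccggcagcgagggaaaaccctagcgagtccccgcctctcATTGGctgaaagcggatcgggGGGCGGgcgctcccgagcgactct
Idi1, chr13:8885356-8885605, plus strand: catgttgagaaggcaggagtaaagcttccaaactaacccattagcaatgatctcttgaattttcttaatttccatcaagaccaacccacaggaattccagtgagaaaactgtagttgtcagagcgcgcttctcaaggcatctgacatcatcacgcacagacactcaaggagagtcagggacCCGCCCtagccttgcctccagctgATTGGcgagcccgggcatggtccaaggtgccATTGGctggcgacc
Lss, chr10:76531355-76531604, plus strand: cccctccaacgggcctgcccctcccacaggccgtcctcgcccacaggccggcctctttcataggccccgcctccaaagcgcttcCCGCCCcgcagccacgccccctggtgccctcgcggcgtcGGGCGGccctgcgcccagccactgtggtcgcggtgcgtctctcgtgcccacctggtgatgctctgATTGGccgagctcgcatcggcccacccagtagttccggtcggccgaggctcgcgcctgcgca
Dhcr7, chr7:143829964-143830213, plus strand: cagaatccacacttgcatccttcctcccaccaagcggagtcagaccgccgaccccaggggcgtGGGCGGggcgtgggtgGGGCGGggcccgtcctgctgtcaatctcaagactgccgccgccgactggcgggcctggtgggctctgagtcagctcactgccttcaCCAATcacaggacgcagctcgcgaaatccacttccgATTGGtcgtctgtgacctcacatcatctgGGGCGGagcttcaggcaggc

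The sterol regulatory element core was found in the Hmgcs1 window alone among these 4 genes, and in 1.05% of the 32851 promoter windows of the table. A CCAAT match was present in the printed window of each of the 4 genes, with 3 in Hmgcs1, against 33.8% of all windows. A GC box was also present in each of the 4, against 32.7% of all windows. The Dhcr7 window was picked for its number of matches, and its other windows held no CCAAT. Its presence in both counts is thus partly set by that choice, and the shares over all windows involve no such choice. No matches overlapped one another. A match is a match of letters and no more, and windows without one may carry sites that these letters do not describe.

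The genes lie on 6 chromosomes (GRCm38.p6), with Hmgcs1 at chr13:119690351-119708260, Idi1 at chr13:8885606-8892396, Fdps at chr3:89093588-89101967, Fdft1 at chr14:63145150-63181687, Sqle at chr15:59315092-59331193, Lss at chr10:76531565-76557139 and Dhcr7 at chr7:143823167-143848410. Lss overlaps the long noncoding RNA gene 4930483K19Rik, listed at 0 in all 9 libraries.

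The members covered a wide range of levels. Hmgcs1, which condenses acetyl-CoA with acetoacetyl-CoA at the entry of the pathway, had the highest mean over the 9 libraries at 89.5 FPKM. Fdps, farnesyl diphosphate synthase, followed with 47.3 FPKM, and Fdft1, the squalene synthase, with 47.0 FPKM. Sqle, the squalene epoxidase, averaged 23.5 FPKM, Dhcr7, the reductase that yields cholesterol, 13.5 FPKM, Lss, the cyclase that makes lanosterol, 6.77 FPKM, and Idi1, which isomerises isopentenyl diphosphate, 4.23 FPKM. This order held in all 9 libraries for every neighbouring pair except Fdps and Fdft1, where Fdps was above Fdft1 in 3 of the 9. Those 3 were the CUS libraries. Idi1 varied most, with a coefficient of variation of 16.5% over the 9 libraries, then Fdps with 13.3%, and the other 5 lay between 7.03% and 8.40%.

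**Figure D1:**
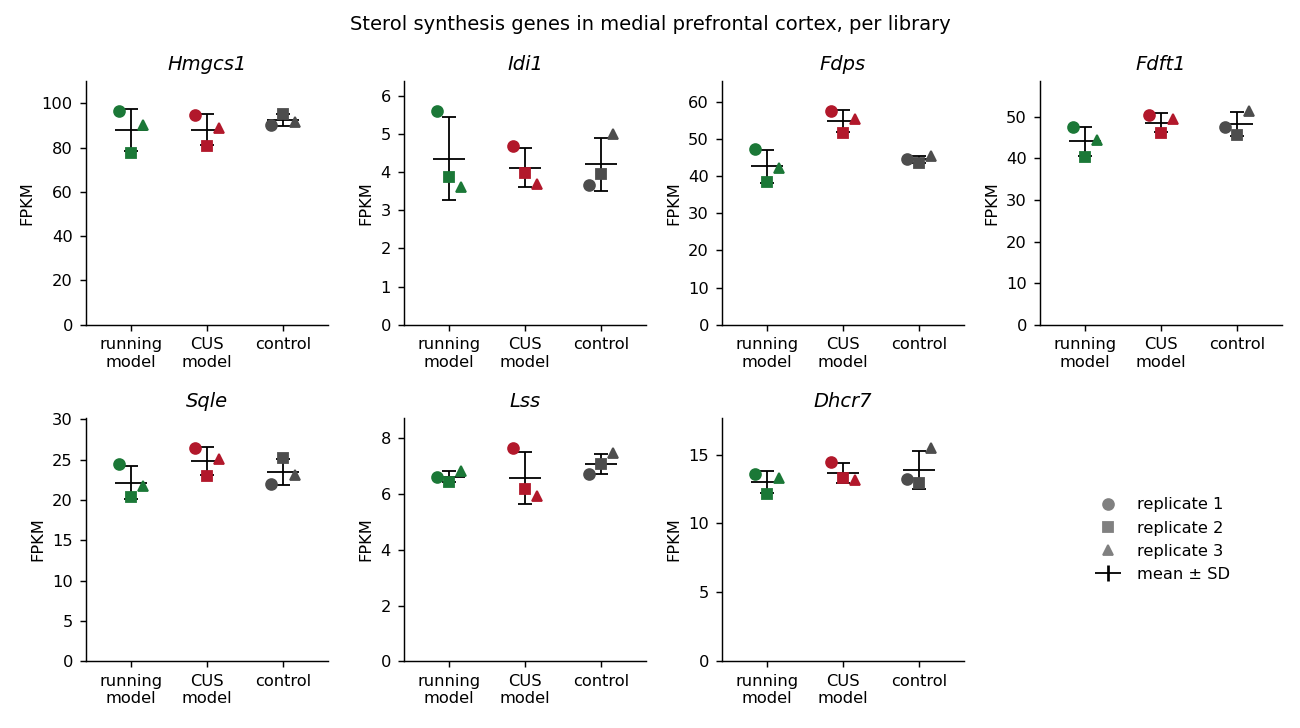
FPKM (vertical axes, from 0) of the 7 genes in each library of the running, CUS and control groups, with symbols for the replicate and black bars for mean ± SD (n = 3). Fdps is the gene whose CUS values, 51.5 to 57.3 FPKM, lie above all values of both other groups.

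Of the 7 genes, Fdps had the largest differences between CUS and each other group, though none passed the adjusted test. It makes geranyl and farnesyl diphosphate, the last intermediate before the routes to sterols, dolichol, ubiquinone and prenylated proteins part. Fdps had 47.3, 38.5 and 42.0 FPKM in the running libraries, 57.3, 51.5 and 55.4 in the CUS libraries, and 44.5, 43.6 and 45.3 in the controls. The CUS values did not overlap with those of either other group, and the running values surrounded the control values.

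The comparison of running with CUS mice asks what exercise does to the stressed cortex. Fdps averaged 42.6 ± 4.46 FPKM in running and 54.7 ± 2.95 FPKM in CUS mice (SD, n = 3 each). The log2 difference was -0.36 (SE 0.0751, 95% interval -0.53 to -0.20), a ratio of 0.778 on the FPKM + 0.5 scale. Its unadjusted p of 0.000587 ranked 102 among the 14013 genes, and with Benjamini-Hochberg adjustment over all of them limma gave an adjusted p of 0.0776, which misses the threshold of 0.05. None of the 7 members passed it (0 of 7), where 0.00714% of all genes did. Without CUS replicate 2 the difference was -0.40 with a limma adjusted p of 0.0282, and with library quality weights it was -0.39 with an adjusted p of 0.0117. Under these settings 1518 and 2178 of the 14013 genes were called, where 1 was called with all libraries at equal weight. Over the other alternatives the adjusted p reached up to 0.286. Over all alternatives the log2 difference of Fdps lay between -0.44 and -0.26. Of 9 sets of cell type markers, 3 had summed levels without overlap between these groups. Inhibitory neuron markers summed to 624 to 683 FPKM in running libraries and 729 to 813 FPKM in CUS libraries, most of it Sst with a mean of 535 FPKM. Microglia markers summed to 113.35 to 120.34 FPKM in running libraries and 120.51 to 138.61 FPKM in CUS libraries, a near tie at the edge. Excitatory neuron markers summed to 1766 to 1856 FPKM in running libraries and 1688 to 1753 FPKM in CUS libraries. On a score that weights the markers of a set equally (the mean centred log2 value), these 3 sets overlapped, and the erythrocyte set alone did not, with 0.2429 or more in running libraries and 0.2426 or less in CUS libraries. No marker of these sets was at 0 in all libraries, and their part in the Fdps difference was not tested.

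Fdft1 and Sqle, the next enzymes after Fdps on the sterol branch, had lower means in running mice than in CUS mice without passing the test. Fdft1 had 47.4, 40.4 and 44.5 FPKM in running libraries, against 50.5, 46.1 and 49.4 FPKM in CUS libraries. The log2 difference was -0.14 (95% interval -0.30 to 0.02, limma adjusted p = 0.260). The annotated Fdft1 gene overlaps Ctsb, a lysosomal protease gene at 285 to 348 FPKM, over 774 of its 36538 bases, and nothing in the library protocol marks the strand, so reads from that stretch cannot be assigned with certainty. Sqle, which carries out the first oxygen-dependent step of the sterol branch, had 24.4, 20.4 and 21.7 FPKM in running libraries, against 26.4, 23.0 and 25.1 FPKM in CUS libraries. Its log2 difference was -0.16 (95% interval -0.34 to 0.02, limma adjusted p = 0.259). The ranges of both genes overlapped between the groups. After rescaling to TPM the differences were -0.041 for Fdft1 and -0.063 for Sqle, and without running replicate 2 they were -0.080 for Fdft1 and -0.10 for Sqle.

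The other 4 members had intervals that reach well to both sides of 0. Hmgcs1 had 96.4, 77.5 and 90.1 FPKM in running libraries, against 94.6, 80.6 and 88.9 FPKM in CUS libraries, a log2 difference of -0.0036 with a 95% interval from -0.19 to 0.18. This interval leaves room for a ratio between 0.877 and 1.14. Dhcr7 averaged 13.01 ± 0.777 FPKM in running and 13.7 ± 0.717 FPKM in CUS mice (SD, n = 3 each), with a 95% interval of the log2 difference from -0.24 to 0.11. Lss averaged 6.62 ± 0.200 FPKM in running and 6.58 ± 0.935 FPKM in CUS mice, with an interval from -0.19 to 0.22. Idi1 had the widest interval, from -0.29 to 0.40. It had 5.59, 3.87 and 3.60 FPKM in running libraries, against 4.68, 3.98 and 3.70 FPKM in CUS libraries.

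Over the 7 genes the median log2 difference between running and CUS was -0.07, with 5 lower and 2 higher, beside a median of -0.03 over all 14013 genes. After rescaling to TPM (a scale on which every library has the same sum) the median of the 7 was 0.03, with 3 lower and 4 higher, and that rescaling moved the share of all genes with a negative difference to 36.7%, against 57.8% before it. Of the 7, 1, Fdps, had no overlap between the groups, and 24.9% of all genes had none. Fdps was also the 1 of 7 with an unadjusted p under 0.05, which 23.5% of all genes had, so neither count is above the background.

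The comparison of CUS with control mice asks what the stress does. Fdps averaged 54.7 ± 2.95 FPKM in CUS and 44.5 ± 0.891 FPKM in control mice (SD, n = 3 each). The log2 difference was 0.30 (SE 0.0751, 95% interval 0.13 to 0.46), a ratio of 1.23, with an unadjusted p of 0.00244 that ranked 128 among 14013 genes and a limma adjusted p of 0.253. Over all alternatives this difference lay between 0.23 and 0.36. Again 0 of 7 members passed the adjusted threshold, where 0.00714% of all genes did. Oligodendrocyte precursor markers (6 of 6 found, none at 0 in all libraries) were the 1 of 9 sets without overlap here, with sums of 74.4 to 79.3 FPKM in CUS libraries and 79.9 to 97.6 FPKM in controls and scores of -0.20 to -0.035 in CUS libraries and -0.0053 to 0.25 in controls, and their part was not tested. Both comparisons use the same CUS libraries, so the 2 differences of Fdps are not independent of each other.

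For the remaining members the intervals between CUS and control mice all included 0. Sqle had 26.4, 23.0 and 25.1 FPKM in CUS libraries, against 22.0, 25.3 and 23.1 FPKM in controls, a log2 difference of 0.08 (95% interval -0.10 to 0.26). Lss had 7.65, 6.17 and 5.92 FPKM in CUS libraries, against 6.74, 7.07 and 7.47 FPKM in controls, a log2 difference of -0.11 (95% interval -0.31 to 0.10). The CUS values of Lss spanned the whole range of the controls. Dhcr7 had 14.5, 13.3 and 13.2 FPKM in CUS libraries, against 13.3, 12.95 and 15.5 FPKM in controls, and Idi1 had 4.68, 3.98 and 3.70 FPKM in CUS libraries, against 3.66, 3.96 and 4.99 FPKM in controls. Hmgcs1 had a log2 difference of -0.07 (95% interval -0.26 to 0.11), Idi1 one of -0.02 (95% interval -0.37 to 0.32), Dhcr7 one of -0.02 (95% interval -0.20 to 0.16) and Fdft1 one of 0.01 (95% interval -0.15 to 0.17).

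For CUS against control the median over the 7 genes was -0.02, with 3 higher and 4 lower, beside 0.02 over all genes. Without control replicate 3 it was 0.06, with 5 higher and 2 lower, and without CUS replicate 3 it was 0.0044, also with 5 higher and 2 lower. Fdps was the 1 of 7 with no overlap and the 1 of 7 with an unadjusted p under 0.05, and the same held for 19.7% and 14.7% of all genes.

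**Figure D2:**
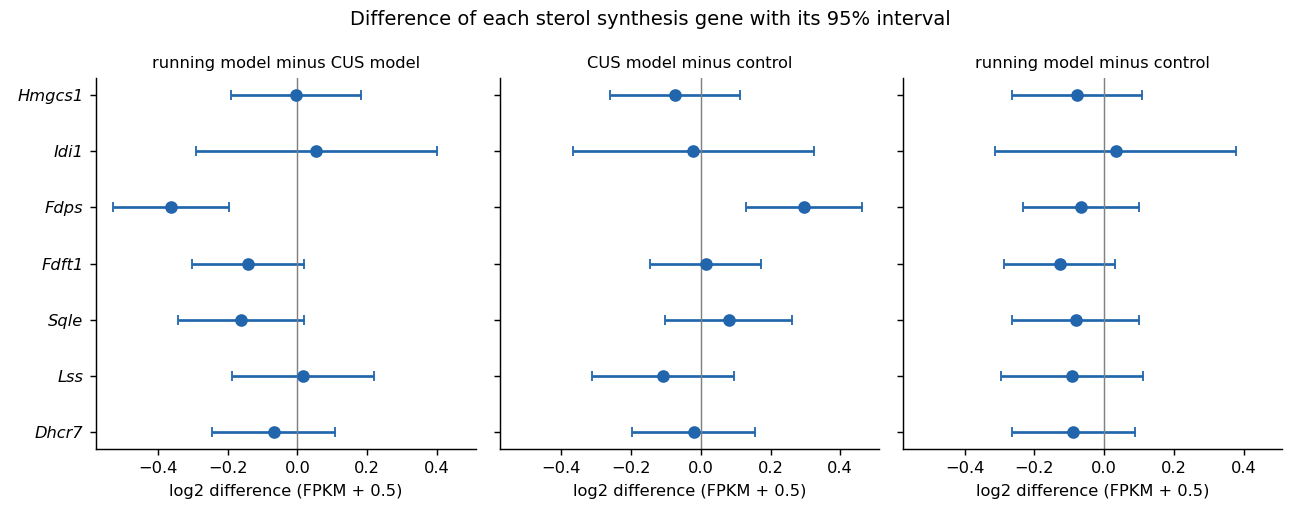
Log2 difference of each gene (horizontal axes, FPKM + 0.5) with its 95% interval from the limma fit of 9 libraries, for running minus CUS, CUS minus control and running minus control. The intervals of Fdps, -0.53 to -0.20 and 0.13 to 0.46 in the first and second panels, do not include 0, and those of the other 6 genes do.

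Running mice were last set against the controls. Fdps averaged 42.6 ± 4.46 FPKM in running and 44.5 ± 0.891 FPKM in control mice (SD, n = 3 each), a log2 difference of -0.07 (95% interval -0.23 to 0.10, limma adjusted p = 0.768). The widest separation among the 7 was that of Fdft1, with 44.1 ± 3.56 FPKM in running and 48.2 ± 2.87 FPKM in control mice, a log2 difference of -0.13 (95% interval -0.29 to 0.03, limma adjusted p = 0.524). It was -0.066 without running replicate 2, -0.082 without control replicate 3 and -0.044 with the myelin covariate. Of the 7 genes, 6 had a negative and 1, Idi1, a positive difference, with a median of -0.08 beside -0.02 over all genes. The same 6 to 1 count was found after rescaling to TPM, quantile normalization and median centring, and without running replicate 2 the difference of Fdps was 0.0044 and that of Hmgcs1 0.010. Idi1 was at -0.14 without running replicate 1, at -0.050 without control replicate 1 and at -0.00013 without control replicate 2. Summed markers of 3 of the 9 sets did not overlap here. Erythrocyte markers summed to 972 to 1238 FPKM in running libraries and 493 to 875 FPKM in controls. Myelin markers summed to 578 to 653 FPKM in running libraries and 656 to 1218 FPKM in controls, and precursor markers to 77.2 to 78.0 FPKM in running libraries and 79.9 to 97.6 FPKM in controls. Scores did not overlap for the erythrocyte and myelin sets, and those of the precursor set did. The part of these sets in the difference of the members was not tested, beyond the myelin covariate. None passed the adjusted test (0 of 7, against 0.0214% of all genes), 0 had an unadjusted p under 0.05 (11.6% of all genes) and 0 had groups without overlap (22.4% of all genes).

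Within each group, the 7 genes tended to be high or low in the same libraries. In CUS mice, replicate 1 had the highest value of the group for 7 of 7 genes. In running mice, replicate 1 was highest for 6 of 7, all but Lss, and replicate 2 was lowest for 6 of 7, all but Idi1. In controls, replicate 3 was highest for 5 of 7, all but Hmgcs1 and Sqle. After removal of the group means, the Pearson r of each gene with the mean of the other 6 over the 9 libraries lay between 0.561 for Lss and 0.866 for Fdps. The median r of the kept genes outside the family with those means was between 0.05 and 0.06, and 0.700% of them had a higher r than Fdps. For Fdft1 1.22% of genes were higher, for Hmgcs1 2.66%, for Dhcr7 3.35%, for Idi1 4.01%, for Sqle 4.53% and for Lss 11.97%. These are descriptions over 9 libraries that share their preparation and scaling.

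Markers of mature oligodendrocytes followed this pattern in part. The 12 of 12 listed myelin markers, Mbp among them, were found, and 0 of them were at 0. Their summed level was 653, 594 and 578 FPKM in the running libraries, 734, 516 and 501 in the CUS libraries, and 656, 702 and 1218 in the controls. The library of each group with the highest sum, running replicate 1, CUS replicate 1 and control replicate 3, was the one in which most of the 7 genes were highest. In running mice the lowest sum was in replicate 3, while replicate 2 was lowest for 6 of 7 genes. In CUS mice the lowest sum was in replicate 3, while replicate 2 was lowest for 4 of 7 genes. In controls replicate 1 had the lowest sum and was lowest for 4 of 7 genes. Over the 9 libraries the Pearson r between the mean centred log2 value of the 7 genes and that of the myelin markers was 0.575, and those of the other 8 marker sets ran between -0.339 for erythrocyte and 0.304 for inhibitory neuron markers. Astrocyte markers had an r of -0.274. Control replicate 3 also held 216 FPKM of the 5 choroid plexus markers, Ttr above all, where the other libraries held between 6.82 and 40.8. With the myelin score as a covariate, the log2 difference of Fdps was -0.37 between running and CUS (limma adjusted p = 0.0907) and 0.36 between CUS and control (limma adjusted p = 0.548). In that fit Fdps differed by -0.0036 between running and control. The part of the myelin markers in the joint variation of the members was not tested.

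To see Fdps without the shared variation, its log2 value was set against the mean log2 value of the other 6 genes in the same library, a measure chosen after the values were seen and given without a test. This difference was 1.23, 1.18 and 1.22 in running libraries, 1.47, 1.51 and 1.58 in CUS libraries, and 1.28, 1.19 and 1.15 in controls. The CUS libraries were above all others, and the running and control libraries overlapped. Means were 1.21 ± 0.0251 in running, 1.52 ± 0.0572 in CUS and 1.205 ± 0.0668 in control mice (SD, n = 3 each). Scaling of a whole library cancels almost fully in this measure. The same measure for the other 6 genes gave mean differences between CUS and control from -0.15 for Lss to 0.07 for Sqle, where that of Fdps was 0.32. Between running and CUS these ran from -0.08 for Sqle to 0.17 for Idi1, where that of Fdps was -0.31, and for each of the 6 the mean of the others includes Fdps.

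**Figure D3:**
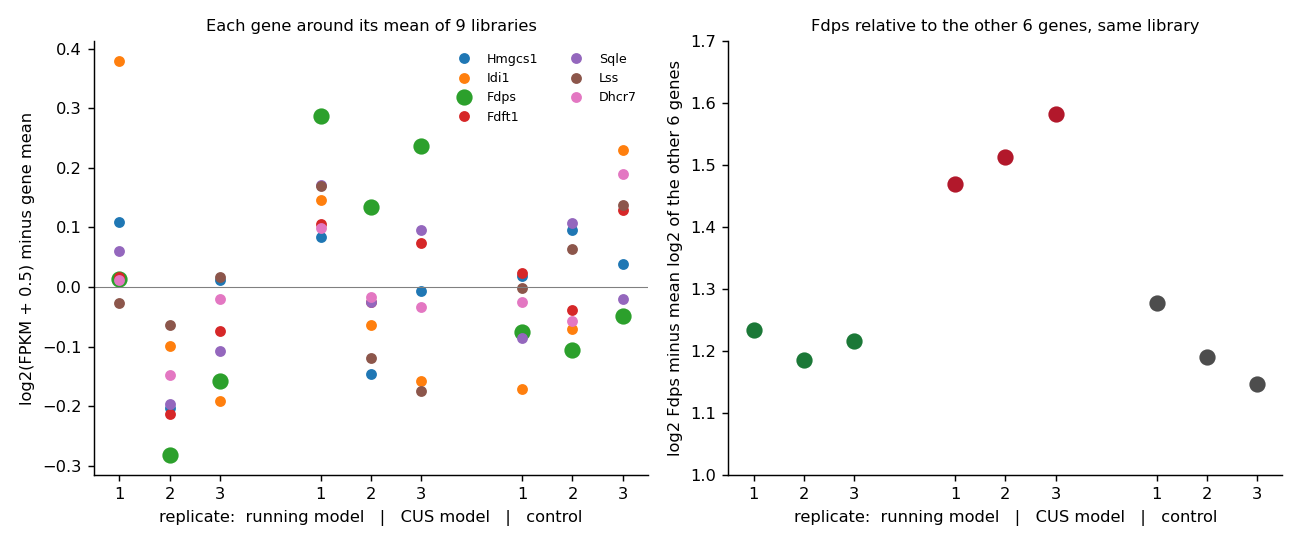
Left, log2(FPKM + 0.5) of each of the 7 genes minus its mean over the 9 libraries (vertical axis), by replicate in the running, CUS and control groups. Right, log2 Fdps minus the mean log2 of the other 6 genes in the same library, on an axis that starts at 1, with CUS libraries at 1.47 to 1.58 and the other 6 between 1.15 and 1.28.

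The rest of the pathway was read from a list of 18 other genes of mevalonate and sterol synthesis, of which 16 passed the filter on low values. Between running and CUS, 0 of 16 passed the adjusted test in either direction, 12 were lower and 4 higher, and the median log2 difference was -0.14, where all genes had -0.03. The median was -0.04 after rescaling to TPM, where all genes had 0.06. It was -0.03 once a trend with transcript length and GC content was taken out, where all genes had -0.0082. Erg28, known from yeast as a scaffold of the demethylation enzymes, averaged 20.8 ± 0.892 FPKM in running and 25.2 ± 2.38 FPKM in CUS mice, a log2 difference of -0.26 (limma adjusted p = 0.0978). Msmo1, the sterol methyl oxidase, had 51.5 ± 3.89 FPKM in running and 61.5 ± 8.64 FPKM in CUS mice (log2 -0.25, limma adjusted p = 0.186). Mvd, which makes isopentenyl diphosphate from mevalonate diphosphate, had 8.89 ± 0.507 FPKM in running and 10.5 ± 0.762 FPKM in CUS mice (log2 -0.22, limma adjusted p = 0.221). The groups of Erg28 and Mvd did not overlap and those of Msmo1 did. Of the 16 genes, 3 had no overlap between running and CUS, against 24.9% of all genes. Without CUS replicate 2 limma called Erg28 (adjusted p = 0.0338) and Msmo1 (adjusted p = 0.0366), and quality weights called Erg28 (adjusted p = 0.0252). Under these settings 1518 and 2178 of all 14013 genes were called. Without CUS replicate 3 the difference of Msmo1 was -0.16.

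Between CUS and control, 13 of these 16 were higher and 3 lower, with 0 called and a median of 0.07, where all genes had 0.02. After rescaling to TPM 9 were higher and 7 lower, with a median of 0.0045, where all genes had -0.04. Erg28 had a log2 difference of 0.22 (limma adjusted p = 0.280), Msmo1 one of 0.18 and Hsd17b7, a sterol ketoreductase, one of -0.14. That of Msmo1 was 0.093 without CUS replicate 3, 0.11 without control replicate 1 and 0.295 without CUS replicate 2, and that of Hsd17b7 was -0.047 with the myelin covariate. Between running and control 12 were lower and 4 higher, with 0 called, and 8 were lower and 8 higher without control replicate 3. Of all genes 56.2% were lower, and 53.7% without that library. Pmvk, the phosphomevalonate kinase, averaged 28.5 ± 2.31 FPKM in running and 33.8 ± 1.80 FPKM in control mice, with no overlap (log2 -0.25, limma adjusted p = 0.297). Of the 16 genes, 2 had no overlap between running and control, against 22.4% of all genes.

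**Figure D4:**
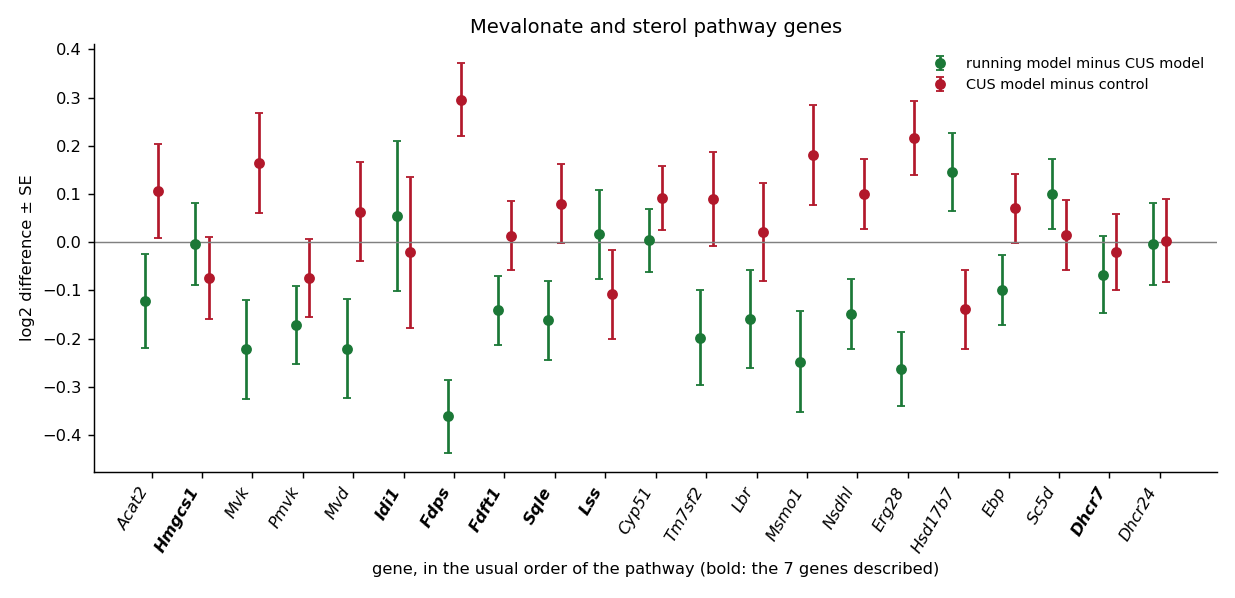
Log2 difference ± SE (vertical axis) of the 7 genes and others of the list in the usual order of the pathway, for running minus CUS in green and CUS minus control in red, with the 7 members in bold. Both differences use the same CUS libraries, and Fdps has the largest absolute value in each, -0.36 and 0.30.

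The routes that leave the pathway at farnesyl diphosphate were read from 10 genes, all of which passed the filter, with 0 called in each comparison. Between running and CUS, 9 were lower and 1 higher, and after rescaling to TPM 5 were lower and 5 higher. Of all genes 57.8% were lower, and 36.7% after that rescaling. Pdss1, which starts the side chain of ubiquinone, had 3.67 ± 0.396 FPKM in running, 4.74 ± 0.511 FPKM in CUS and 3.80 ± 0.262 FPKM in control mice, so that, as with Fdps, the CUS values stood above both other groups without overlap. Its log2 difference between running and CUS was -0.33 (limma adjusted p = 0.103). Fnta, a subunit shared by farnesyl and geranylgeranyl transferases, had 17.9 ± 0.275 FPKM in running, 20.5 ± 1.89 FPKM in CUS and 17.6 ± 0.877 FPKM in control mice, also without overlap between CUS and the other groups. Its log2 difference between running and CUS was -0.19 (limma adjusted p = 0.149). It was -0.12 without CUS replicate 3, -0.092 after rescaling to TPM and -0.059 with length and GC removed. Of all genes, 24.9% had no overlap between running and CUS, and 19.7% had none between CUS and control. Pggt1b, the other subunit of geranylgeranyl transferase, ran the opposite way, with 2.10 ± 0.240 FPKM in running, 1.64 ± 0.192 FPKM in CUS and 2.27 ± 0.144 FPKM in control mice.

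Of 10 genes that control SREBP, 0 were called in any comparison. Srebf2, which codes for SREBP-2 itself, had 51.8, 49.7 and 50.3 FPKM in running libraries, against 50.8, 51.6 and 40.2 FPKM in CUS libraries, the lowest being CUS replicate 3. Insig2, which holds SREBP in the endoplasmic reticulum, averaged 17.0 ± 1.10 FPKM in CUS and 15.0 ± 0.652 FPKM in control mice (log2 0.17, limma adjusted p = 0.295). Insig1, a target and a brake of SREBP, averaged 24.8 ± 2.11 FPKM in running and 26.5 ± 1.57 FPKM in control mice (log2 -0.10, and 0.11 with the myelin covariate). With 1 library left out it reached -0.039 without running replicate 2, -0.048 without control replicate 3 and -0.16 without running replicate 1.

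Uptake and intracellular transport of sterol were read from 16 genes, with 0 called in any comparison. Between running and CUS, 11 were higher and 5 lower, with a median of 0.05. After rescaling to TPM 15 were higher and 1 lower, and with length and GC removed 8 were higher and 8 lower. Of all genes, 57.8% were lower before these changes, 36.7% after rescaling to TPM and 52.6% with length and GC removed. Gramd1b, which carries cholesterol from the plasma membrane to the endoplasmic reticulum, averaged 43.5 ± 2.61 FPKM in running and 36.4 ± 2.80 FPKM in CUS mice, without overlap (log2 0.26, limma adjusted p = 0.0924). Of the 16 genes, 3 had no overlap between running and CUS, against 24.9% of all genes. Between running and control 3 of the 16 had none, against 22.4% of all genes. Limma called Gramd1b without CUS replicate 2 (adjusted p = 0.0289) and with quality weights (adjusted p = 0.0185), and Lrp8 with quality weights (adjusted p = 0.0181). Of all 14013 genes, 1518 were called without that library and 2178 with quality weights. Lrp8, a receptor for apolipoprotein E and reelin, averaged 16.6 ± 0.842 FPKM in running, 13.9 ± 1.53 FPKM in CUS and 13.5 ± 0.974 FPKM in control mice, and the running values lay above both other groups. Its log2 difference was 0.25 from CUS (limma adjusted p = 0.125) and 0.29 from control (limma adjusted p = 0.268). From CUS it was 0.16 without CUS replicate 1, and from control it was 0.15 with the myelin covariate.

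Of 14 genes of sterol export, storage and turnover, 0 were called. With quality weights, limma called 2178 of the 14013 genes between running and CUS. Among them were Nr1h2, a liver X receptor (log2 -0.16, limma adjusted p = 0.0313), and Apod, apolipoprotein D (log2 -0.55, limma adjusted p = 0.0390). With equal weights the differences were -0.15 for Nr1h2 and -0.50 for Apod, and that of Nr1h2 was -0.048 after rescaling to TPM. The Apod values overlapped between these groups. Soat1, which esterifies cholesterol for storage, averaged 3.34 ± 0.138 FPKM in running and 2.70 ± 0.220 FPKM in CUS mice (log2 0.27, limma adjusted p = 0.117). Ch25h, the cholesterol 25-hydroxylase, was low throughout, with 0.373 ± 0.0802 FPKM in CUS and 0.683 ± 0.111 FPKM in control mice (log2 -0.44, limma adjusted p = 0.260). Its CUS libraries, at 0.29, 0.45 and 0.38 FPKM, all lay under the filter level of 0.5 FPKM. It was kept through its control libraries, at 0.67, 0.58 and 0.80 FPKM. At such levels the difference depends on the pseudocount, and it was -0.73 with a pseudocount of 0.1. Of 15 genes of fatty acid synthesis, the branch of lipid synthesis led by SREBP-1, 0 were called. Mid1ip1, a regulator of acetyl-CoA carboxylase, was among the 2178 genes that limma called between running and CUS with quality weights (log2 -0.26, limma adjusted p = 0.0403). Between CUS and control, 11 of the 15 fatty acid genes were lower and 4 higher, where 44.1% of all genes were lower. Without CUS replicate 3, 9 were lower and 6 higher, and without control replicate 3, 10 were lower and 5 higher. Scd1, the stearoyl-CoA desaturase, had 33.8 ± 3.90 FPKM in CUS and 39.8 ± 3.08 FPKM in control mice (log2 -0.23, limma adjusted p = 0.296). Its difference was -0.11 with quality weights and -0.097 with the myelin covariate. Fasn, the fatty acid synthase, averaged 31.0 ± 0.952 FPKM in running and 27.2 ± 5.41 FPKM in CUS mice (log2 0.21, limma adjusted p = 0.311). CUS libraries held 30.5, 30.1 and 20.9 FPKM, and without CUS replicate 3, the lowest, the difference was 0.031.

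The genes most like the family were sought among 9029 others with a mean of at least 5 FPKM, by the Pearson r of their log2 value with the mean centred log2 value of the 7 genes over the 9 libraries. The closest were Stx6, a syntaxin of the trans-Golgi network, with an r of 0.950, Ankrd9 with 0.945, Tmem189, a desaturase of plasmalogen synthesis, with 0.939, Aifm1, a mitochondrial flavoprotein, with 0.925, and Sdha, a subunit of succinate dehydrogenase, with 0.922. Their Spearman rho lay between 0.900 and 0.967. These 5 are the top of 9029 values over 9 points.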

How the data were processed

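The 9 columns of values are FPKM, which the authors deposited with 2 decimals; each matched 1 library. Per the labels' protocols, Trizol extracts were selected for polyadenylated RNA on oligo(dT) beads and reverse transcribed from random hexamers. Per the submitters' processing notes, Bowtie2 2.2.5, RSEM 1.2.12, DESeq2 1.4.5 and mm10 were used; the role of each is not known here. Read depth is unknown, so counting intervals could not be given.

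Values were analysed as log2(FPKM + 0.5), which understates changes of low genes, for the 14013 genes reaching 0.5 FPKM in 3 or more libraries. A single limma 3.58.1 fit (R 4.3.3) with an intensity trend covered the 9 libraries and all 3 comparisons. P-values were adjusted by Benjamini-Hochberg over the 14013 genes, with calls below 0.05. The code was tested on simulated data. With 3 libraries a group, the smallest exact permutation p would be 0.1. Replicates carry numbers in listing order. The members and lists were chosen with earlier results of these data known. Named list genes come from the 3 with the smallest p per list and comparison; Srebf2 between running and CUS was named for its role after its values were seen. Some genes that the rule names are not reported here. Gene positions, overlaps and promoters are from RefSeq GRCm38.p6. Alternatives changed the pseudocount, filter, scaling, limma settings, a myelin covariate and the libraries included; the length and GC correction and the relative measure of Fdps were added after seeing the data.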

Additional observations from a re-analysis of the deposited data

How the results depend on the processing

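Of the 7 members, 0 were called under any alternative except Fdps between running and CUS, with quality weights (-0.39, adjusted p = 0.0117) and without CUS replicate 2 (-0.40, limma adjusted p = 0.0282). Fdps kept its direction throughout between running and CUS and between CUS and control. With 1 library left out it lay between -0.44 and -0.29 for running minus CUS and between -0.14 and 0.0044 for running minus control. The cause of each change below was not tested.

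Genes called between running and CUS numbered 0 with no filter, 2 with a stricter filter, 3 after TPM rescaling, 2 after quantile normalization, 2 after median centring, 2178 with quality weights, 15 with only the 6 libraries compared and 0 with length and GC removed. Between CUS and control they were 0 with a stricter filter, 8 with quality weights, 0 with the myelin covariate and 0 with length and GC removed. Between running and control they were 1 with no filter, 7 without the trend, 147 with quality weights, 24 with only 6 libraries, 0 with the myelin covariate and 9 with length and GC removed. With each library left out they ranged between 0 and 1518 for running minus CUS (21 without control replicate 2), 1 and 6 for CUS minus control, and 1 and 10 for running minus control.

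Small differences changed sign. For running minus CUS, Hmgcs1 was 0.10 with TPM, 0.071 with quantile normalization, 0.017 with centring and 0.059 with length and GC removed. Dhcr7 (0.031) and Insig2 (0.0095) changed with TPM, Idi1 (-0.10) and Lss (-0.11) with quality weights, and Lss (-0.094) and Insig2 (0.0034) with length and GC removed. For CUS minus control, Fdft1 was -0.052 with TPM, -0.039 with quantile normalization and -0.0013 with centring. With quality weights Idi1 was 0.12, Lss 0.039 and Dhcr7 0.051, and with the myelin covariate Idi1 was 0.26, Lss 0.031, Dhcr7 0.11 and the median of the 7 genes 0.11. For running minus control, the myelin covariate gave Lss 0.040, Dhcr7 0.039 and Insig1 0.11.

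With 1 library left out, running minus CUS lay between -0.072 and 0.084 for Hmgcs1, -0.12 and 0.16 for Idi1 and -0.050 and 0.12 for Lss. CUS minus control lay between -0.025 and 0.059 for Fdft1, -0.11 and 0.10 for Idi1 and -0.067 and 0.057 for Dhcr7. With length and GC removed, running minus CUS was 0.12 for Gramd1b, -0.15 for Pdss1, -0.11 for Mvd, 0.17 for Soat1 and 0.16 for Lrp8, and running minus control was -0.14 for Pmvk. Running minus control lay, with 1 library left out, between -0.14 and 0.15 for Idi1 and -0.15 and 0.010 for Hmgcs1. No paired analysis was possible because the labels give no replicate numbers that join libraries of different groups.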
